A study of Homo sapiens with 20 samples.

Results

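The genes that license origins of DNA replication and build the replication fork were followed through the response of U2-OS cells to ionizing radiation (IR). They comprised 48 genes, chosen by name for their role in origin licensing, the replicative helicase, the polymerases, the sliding clamp and its loader, and the supply of nucleotides. All 48 were among the 20314 genes of the count table, and all 48 passed the filter on low counts that left 14992 genes to be tested. The rule for choosing them uses no measured value, although earlier results of these data were known when they were chosen.

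Before S phase the origin recognition complex, with CDC6 and CDT1, loads the MCM2 to MCM7 helicase onto DNA, and geminin (GMNN) blocks CDT1 afterwards so that an origin is not licensed again. The kinase CDC7 with its activator DBF4, together with MCM10, CDC45 and the GINS proteins, turns the loaded helicase into an active fork, at which primase, polymerases α, δ and ε, the clamp PCNA and RPA copy the strands. Many of these genes are transcribed under the control of E2F factors at the start of S phase, and their mRNA is low in cells that have left the cycle, as senescent cells do after DNA damage.

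U2-OS is a line derived from a human osteosarcoma. The study compared 4 groups of 5 libraries, 20 in all. Untreated cells were the controls, and cells were harvested 1.5 h (90 minutes in the labels) or 7 days after irradiation with 20 Gy, the time points of the early and the late transcriptional response. A further group was not irradiated and carried an shRNA against NFKBIA, the gene of the NF-κB inhibitor IκBα. The methods describe lentiviral shRNA vectors induced by doxycycline and clonal selection with puromycin. They also describe scrambled shRNA controls treated with doxycycline, but for the untreated cells sequenced here the labels give no vector and no shRNA, so that effects of the vector, the drug or the selection cannot be told apart from the knockdown. The study describes the libraries of a group as biological replicates of this line, and the labels do not name separate cultures, so that p-values measure the spread between these libraries.

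The libraries held 22535659 to 40390961 counts. Levels are given as CPM (counts relative to the library total) scaled by the TMM method, and differences as log2 fold changes with their standard errors. Calls of higher or lower required an edgeR adjusted p under 0.05 together with a log2 difference of more than 0.5 in that direction. The osteoblast lineage genes COL1A1, SPARC and RUNX2 were expressed in every library, whereas SP7 and IBSP reached at most 3 counts and 1 count and COL1A2 and BGLAP at most 0.595 and 1.71 CPM. The keratin genes KRT8 (189 to 444 CPM) and KRT18 (361 to 657 CPM), which mark epithelial cells, were also expressed in every library, whereas EPCAM, CDH1, KRT5 and KRT19 reached at most 4.45, 2.71, 0.626 and 0.824 CPM. NFKBIA was at 28.6, 23.5, 27.4, 35 and 42 CPM in the untreated libraries and at 13, 11.2, 12.1, 12 and 12.4 CPM in the knockdown, which lay below all of them (-1.36 ± 0.11, SE, n = 5 in each group, edgeR adjusted p = 4.87e-09). It was at 76.3 to 88.3 CPM at 1.5 h and at 28.4 to 32.4 CPM at 7 days. CDKN1A, which encodes the cyclin-dependent kinase inhibitor p21, was at 199.9 to 242 CPM in untreated cells, 656 to 714 CPM at 1.5 h and 805 to 837 CPM at 7 days, without overlap with the untreated libraries. In the knockdown CDKN1A was at 243 to 272 CPM, just above all untreated libraries. Untreated replicate 5 stood apart, with the fewest counts and a median correlation of 0.978 with the other untreated libraries, against at least 0.989 for the others.

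At 7 days after IR, 29 of the 48 genes fell and none rose, against 14.4% of all genes tested that were called lower and 16.7% that were called higher. The median log2 fold change of the 48 genes was -0.60, against 0.01 over all genes tested, and single genes ranged from -1.31 (GINS2) to 0.10 (ORC5). For 36 genes all 5 irradiated libraries lay below all 5 untreated ones, which held for 20.4% of all genes tested, and for none did they all lie above, against 24.4%. By the adjusted p alone 40 genes were lower and 0 higher, against 31.2% and 32.9% of all genes. No gene was higher at an unadjusted p under 0.05 in edgeR, against 34.5% of all genes, and DESeq2 also called 29 lower and 0 higher. In bulk RNA, fewer cells in S phase and less of each mRNA per cell cannot be told apart.

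Sequencing lanes followed the groups closely. Lane 2 held untreated replicates 1 to 4, and lane 3 held untreated replicate 5 with 3 of the libraries from 1.5 h. Lane 4 held libraries of both times after IR, lane 5 those of 7 days with 1 knockdown library, and lane 6 the other knockdown libraries. With the lane as a factor, a fit in which the untreated level rests on the link through untreated replicate 5, 17 genes were called lower at 7 days, against 19.5% of all genes in that fit, and the median was -0.37. The 12 genes that lost the call were MCM2, MCM3, CDT1, GMNN, CDC45, GINS3, PRIM1, POLD1, RFC2, RFC5, FEN1 and DUT. Without untreated replicate 5, 30 genes were called lower, the same 29 and RPA3.

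**Figure D1:**
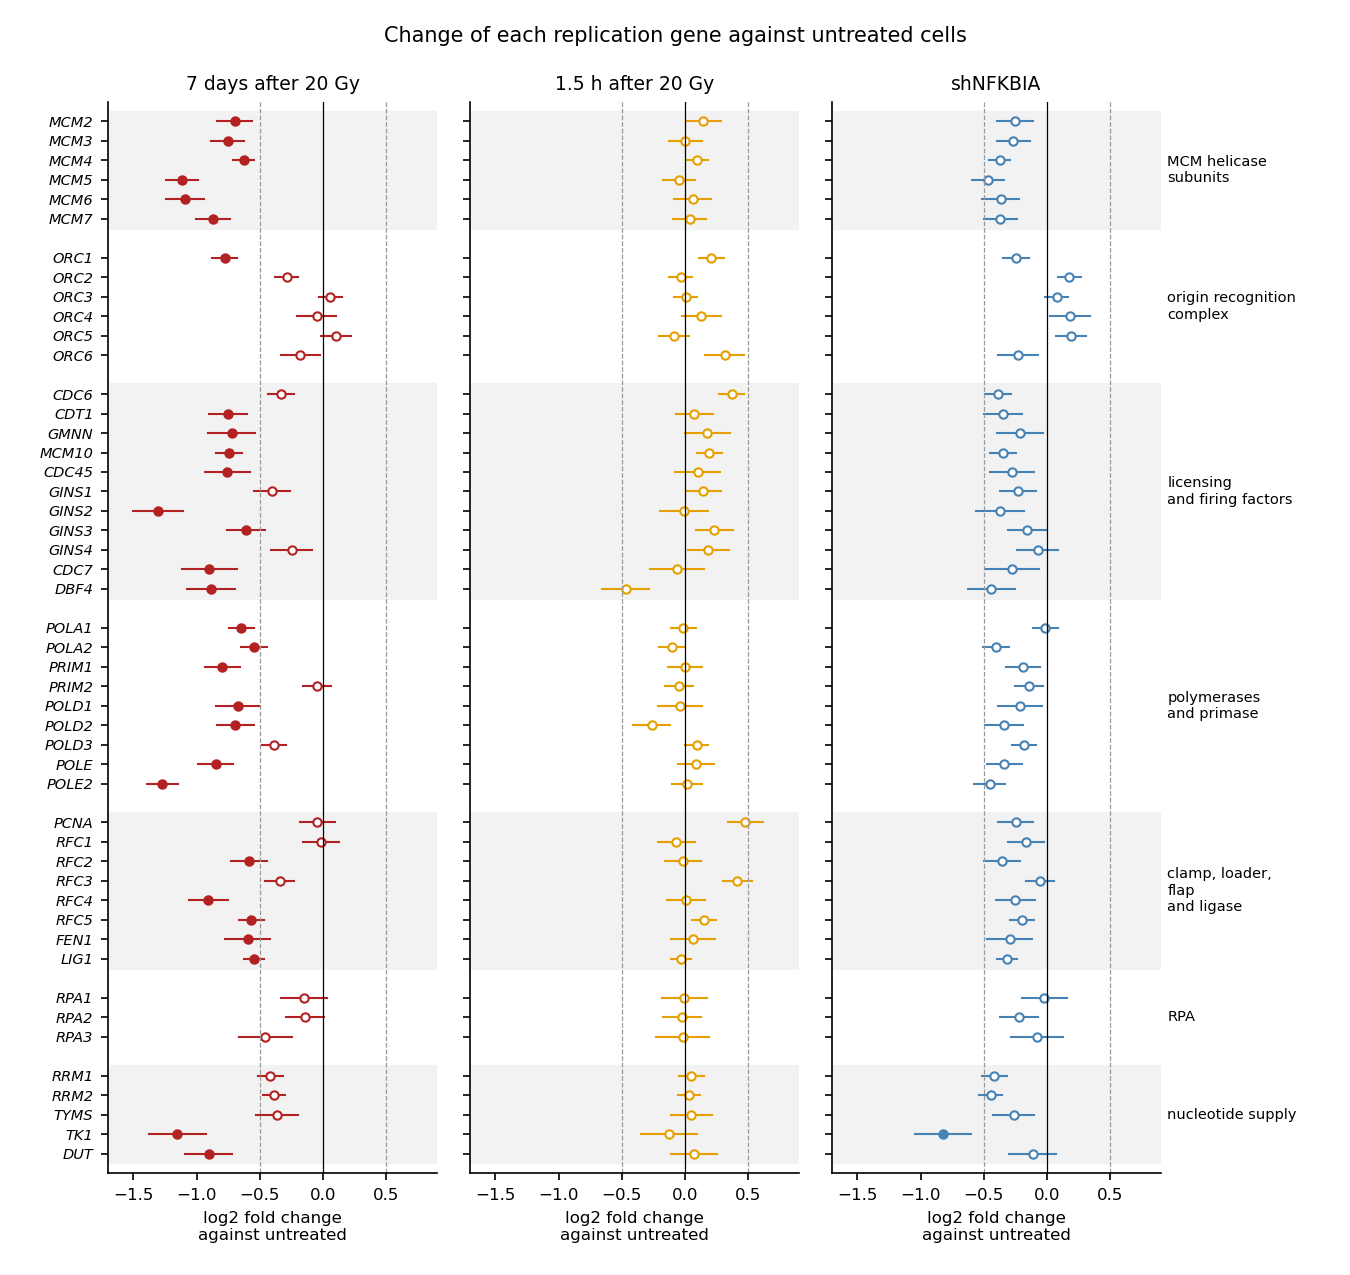
Log2 fold change of each of the 48 replication genes against untreated cells (x axis) at 7 days and 1.5 h after 20 Gy and in the NFKBIA knockdown; rows are genes in their role groups, bars are 95% confidence intervals, filled points were called and dashed lines mark 0.5 in either direction. At 7 days 29 points are filled, all to the left, at 1.5 h none, and in the knockdown only TK1.

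The region before the transcription start was compared between the genes, since E2F factors and the CCAAT-binding factor NF-Y are known regulators of this family. Promoter sequences of RefSeq (GRCh38.p14, 250 bases before to 50 after the start) were matched by symbol for 42 of the 48 genes. An E2F motif (TTTCCCGC, TTTCGCGC, TTTGCCGC or TTTGGCGC on either strand, where matches on opposite strands can overlap) was present in 21 of the 42, or 50%, against 6.24% of 10907 genes tested and 3.99% of all 27305 genes with a promoter sequence. It was present in 15 of 27 genes that fell at 7 days and in 6 of 15 that were not called. CCAAT on either strand was present in 24 of the 42 genes, or 57.1%, against 42.8% of the genes tested. The CHR element TTTGAA, known from mitotic genes, was present in 3, or 7.14%, against 14.4%, and in 11 of 16 mitotic genes. These matches describe the letters of the windows and were not tested as binding sites.

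Windows of up to 180 bases before the start, cut back to bases outside annotated exons, are shown for genes of both kinds, with E2F, CCAAT and CHR matches in capitals. MCM6, GMNN, CDC7 and POLA1 fell at 7 days and hold E2F matches. PCNA holds an E2F match and was not called, and RFC1 and ORC5 were not called and hold no match in the bases shown. GMNN, CDC7 and PCNA have more than 1 start in the table, and the window with the E2F match is shown.
MCM6, chr2:135876444-135876623, minus strand: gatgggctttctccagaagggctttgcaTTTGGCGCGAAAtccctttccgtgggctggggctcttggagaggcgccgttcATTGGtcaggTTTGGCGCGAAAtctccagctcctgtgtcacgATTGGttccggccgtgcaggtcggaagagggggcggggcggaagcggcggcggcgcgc
GMNN, chr6:24775245-24775412, plus strand: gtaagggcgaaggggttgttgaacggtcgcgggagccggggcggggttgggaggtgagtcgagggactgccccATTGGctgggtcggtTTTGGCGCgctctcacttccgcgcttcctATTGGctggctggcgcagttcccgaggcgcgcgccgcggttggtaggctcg
CDC7, chr1:91500949-91501107, plus strand: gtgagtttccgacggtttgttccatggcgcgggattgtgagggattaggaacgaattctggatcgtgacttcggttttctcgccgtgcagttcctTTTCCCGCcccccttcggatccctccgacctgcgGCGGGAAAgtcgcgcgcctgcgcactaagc
POLA1, chrX:24693738-24693917, plus strand: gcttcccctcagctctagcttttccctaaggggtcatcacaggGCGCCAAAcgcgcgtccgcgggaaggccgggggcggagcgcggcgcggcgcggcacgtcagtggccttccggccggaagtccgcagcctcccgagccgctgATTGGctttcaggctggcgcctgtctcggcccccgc
PCNA, chr20:5126627-5126785, minus strand: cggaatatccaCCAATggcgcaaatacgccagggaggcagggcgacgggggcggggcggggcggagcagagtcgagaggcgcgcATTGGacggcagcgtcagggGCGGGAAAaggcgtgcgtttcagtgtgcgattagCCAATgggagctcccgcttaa
RFC1, chr4:39366376-39366542, minus strand: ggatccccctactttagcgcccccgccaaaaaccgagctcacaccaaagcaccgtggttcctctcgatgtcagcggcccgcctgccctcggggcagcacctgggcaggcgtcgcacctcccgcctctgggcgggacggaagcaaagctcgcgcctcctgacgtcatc
ORC5, chr7:104208048-104208193, minus strand: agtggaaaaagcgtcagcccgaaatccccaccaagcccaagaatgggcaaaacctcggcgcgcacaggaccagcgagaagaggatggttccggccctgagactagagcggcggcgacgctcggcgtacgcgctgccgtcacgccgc
The presence of a match did not follow the call gene by gene. Of the 27 genes with a window that fell, 12 held no E2F match, among them TK1, RFC4, CDC45 and ORC1.

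All 6 subunits of the MCM helicase fell at 7 days, with a median log2 fold change of -0.81. MCM5, whose protein closes the ring of the helicase with MCM2, fell most in this group. Its level was 229, 227, 226, 239 and 290.4 CPM in untreated cells and 114, 115, 104, 113 and 113 CPM at 7 days. Every irradiated library was therefore below the untreated ones, at 46.2% of the untreated level, and the log2 fold change was -1.12 ± 0.061 (SE, n = 5 in each group, edgeR adjusted p = 1.68e-12). At 1.5 h MCM5 lay within the untreated range, at 227 to 251 CPM, and in the knockdown it was at 169 to 186 CPM, below all untreated libraries and above all of those from 7 days. MCM4 had the smallest fall of the 6 in this fit, from 315, 288, 303, 289.8 and 322 CPM to 195, 201, 191, 198 and 198 CPM. These groups did not overlap either, with a log2 fold change of -0.63 ± 0.04 (SE, n = 5 in each group, edgeR adjusted p = 1.74e-11). The log2 fold changes of the other subunits were -0.70 (MCM2), -0.76 (MCM3), -1.09 (MCM6) and -0.87 (MCM7). Under a lane term the order differed, with MCM5 at -1.32, MCM4 at -0.74, MCM6 at -0.66, MCM7 at -0.55, MCM3 at -0.45 and MCM2 at -0.33.

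The helicase contains the subunits in equal number, and their mRNA levels were compared per kilobase of the gene length in the table. In untreated cells MCM3 made up 27.6% ± 1.41 (SD, n = 5) and MCM7 26.2% ± 1.25 of the summed CPM per kilobase of MCM2 to MCM7, and MCM5 10.3% ± 2.11. At 7 days the share of MCM5 was 8.32% ± 0.278, that of MCM6 9.12% ± 0.35 and that of MCM4 15.7% ± 0.093. MCM3 and MCM7 were the highest and MCM5 and MCM6 the lowest of the 6 per kilobase in each of the 4 groups. The rank of MCM5 depends on its length in the table, 7338 bases, against 4899 for MCM2 and 4118 for MCM6. In CPM the untreated mean of MCM5 (242) was above those of MCM2 (179) and MCM6 (146). Whether these lengths match the mRNA in these cells was not tested.

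Of the 6 subunits of the origin recognition complex, which marks origins before licensing, only ORC1 was called at 7 days. ORC1, the subunit whose protein level is regulated through the cell cycle, was at 42.1, 38.1, 42.7, 39.8 and 45.5 CPM in untreated cells and at 22.7, 25.4, 23.4, 25.5 and 24.3 CPM at 7 days. The groups did not overlap, and the log2 fold change was -0.78 ± 0.049 (SE, n = 5 in each group, edgeR adjusted p = 1.48e-11). At 1.5 h it was at 45.3 to 49.4 CPM (0.21 ± 0.048, edgeR adjusted p = 0.00411), which passed the adjusted p but not the threshold on the fold change, and under a lane term its difference was 0.05 (edgeR adjusted p = 0.619). ORC5 had the highest log2 fold change of the 48 genes at 7 days in this fit, with levels of 29.9, 30.7, 28.7, 27.8 and 28.4 CPM against 28.9, 26, 26.6, 30.1 and 24 CPM in untreated cells, and these libraries overlapped (0.10 ± 0.056, SE, n = 5 in each group, edgeR adjusted p = 0.123). Untreated replicate 5 was the lowest untreated library of ORC5, and ORC3 came close to it in rank, so that this rank is not firm. ORC2 (-0.29 ± 0.044, edgeR adjusted p = 7.51e-06) and ORC6 (-0.18 ± 0.074, edgeR adjusted p = 0.0377) had smaller differences, and the log2 fold changes of ORC3, 0.06 (95% confidence interval -0.03 to 0.15), and ORC4, -0.05 (95% confidence interval -0.21 to 0.10), had intervals that included 0. With the lane as a factor ORC1 was at -0.98 and ORC2 at -0.14, ORC6 and ORC4 turned to 0.24 and 0.34, and ORC5 was at 0.40.

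Of the 11 licensing and firing factors 8 fell at 7 days, namely CDT1, GMNN, MCM10, CDC45, GINS2, GINS3, CDC7 and DBF4. GINS2 encodes a subunit of the GINS complex and had the largest fall of all 48 genes. It was at 114, 95.4, 98.7, 130.3 and 75.4 CPM in untreated cells and at 39.5, 44.5, 41.5, 41.6 and 40.8 CPM at 7 days. Untreated replicate 5 was the lowest of the untreated libraries and still above every irradiated one, and GINS2 was reduced to 40.5% of the untreated mean (-1.31 ± 0.093, SE, n = 5 in each group, edgeR adjusted p = 1.13e-10). Under a lane term the log2 fold change of GINS2 was -0.83. CDT1, the loading factor, and its inhibitor GMNN both fell, with log2 fold changes of -0.76 and -0.72, as did the fork factors MCM10 (-0.74) and CDC45 (-0.76). For the kinase CDC7 and its activator DBF4 the log2 fold changes were -0.90 and -0.88. CDT1 (-0.47), GMNN (-0.51) and CDC45 (-0.28) were not called under the lane term, and CDC7 was at -1.43.

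The calls differed between the subunits of the GINS complex. GINS1 was at 36.9, 31.3, 33.2, 34.9 and 25.4 CPM in untreated cells and at 24.7, 24.1, 24.2, 25.1 and 24.3 CPM at 7 days, below all untreated libraries but with a fold change under the threshold (-0.40 ± 0.069, SE, n = 5 in each group, edgeR adjusted p = 3.21e-05). GINS4 was at 73.3, 67.7, 75.7, 66.8 and 49.6 CPM and at 56.7, 59.1, 51.3, 57 and 56.7 CPM, and these groups overlapped through untreated replicate 5 (-0.25 ± 0.078, SE, n = 5 in each group, edgeR adjusted p = 0.00873). GINS3 fell by 0.61 (-0.30 and not called under the lane term), and GINS2 more than any other subunit. Under the lane term GINS4 turned to 0.22, and GINS1 was at -0.11. CDC6, the loader of the helicase, was at 131, 116, 130.5, 133 and 114 CPM in untreated cells and at 101, 98.4, 94, 97.6 and 106 CPM at 7 days. All irradiated libraries were lower, and the difference was under the threshold (-0.33 ± 0.049, SE, n = 5 in each group, edgeR adjusted p = 5.53e-06) and was -0.18 under the lane term.

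Of 9 genes of polymerases and primase 7 fell at 7 days. POLE2, the second subunit of the leading strand polymerase ε, was at 26.1, 22.8, 23.3, 25.7 and 24.2 CPM in untreated cells and at 9.19, 11.5, 10.4, 9.8 and 9.78 CPM at 7 days. The groups were far apart, with 41.5% of the untreated level left (-1.27 ± 0.059, SE, n = 5 in each group, edgeR adjusted p = 1.11e-13). The catalytic subunit POLE (-0.85) and the subunits POLD1 (-0.67) and POLD2 (-0.69) of the lagging strand polymerase δ also fell, and POLD1 was at -0.23 and not called under a lane term. The accessory subunit POLD3 was at 68, 71.1, 65.9, 60.7 and 66.8 CPM and at 50.6, 53.2, 52, 49.4 and 48.7 CPM, without overlap and under the threshold (-0.39 ± 0.045, SE, n = 5 in each group, edgeR adjusted p = 1.83e-07).

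The subunits of the polymerase α-primase complex, which lays down the primers, did not all follow. POLA1 (-0.65) and POLA2 (-0.54), and PRIM1, the catalytic primase (-0.80), fell, and PRIM1 was at -0.47 and not called under a lane term. PRIM2, the large primase subunit, was at 85.9, 74.4, 79.4, 83.1 and 69.8 CPM in untreated cells and at 72.6, 78.4, 76.7, 74.7 and 77.6 CPM at 7 days. These libraries overlapped, and the interval of its log2 fold change, -0.05 (95% confidence interval -0.16 to 0.06), did not reach the threshold in either direction. Under a lane term PRIM2 was at 0.08.

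**Figure D2:**
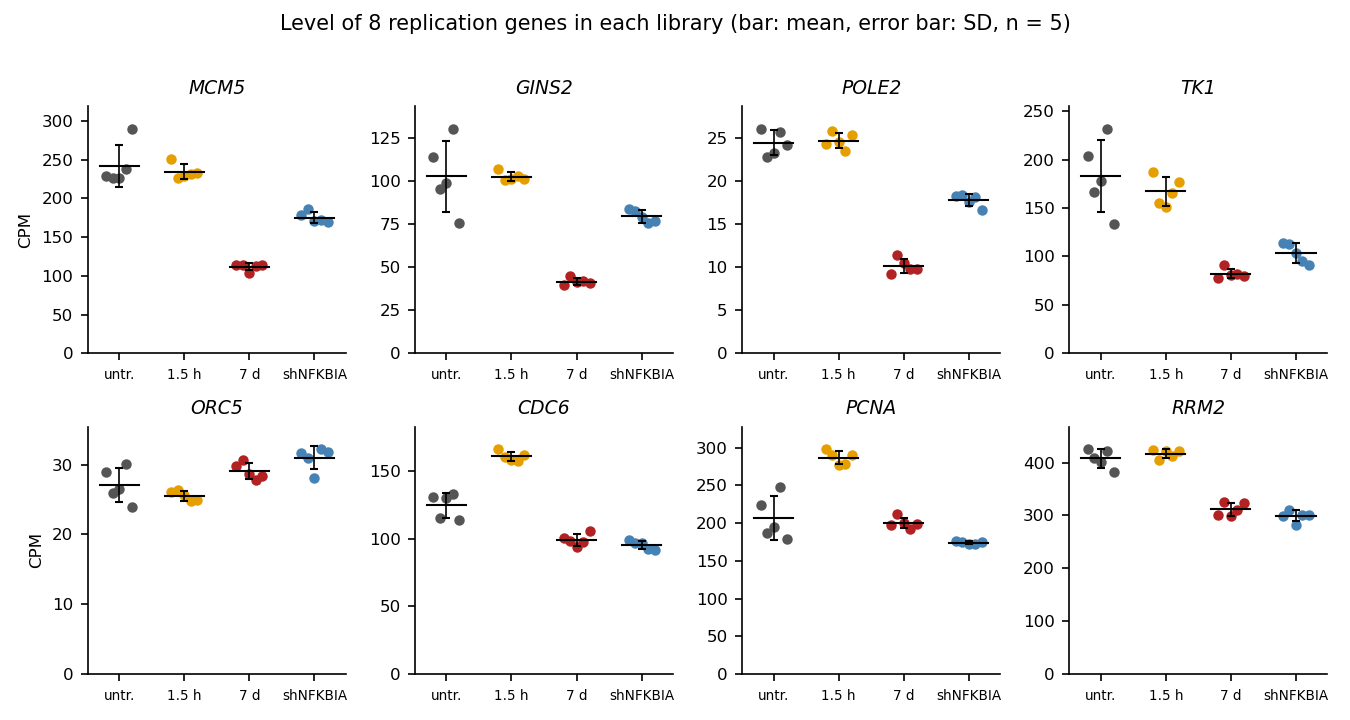
Level of 8 of the replication genes (y axes, TMM-scaled CPM from 0) in each of the 20 libraries by group (x axes), with the mean and SD of 5 libraries. MCM5, GINS2, POLE2 and TK1 are lowest at 7 days, ORC5 overlaps between untreated cells and 7 days, CDC6 and PCNA are highest at 1.5 h, and RRM2 overlaps between 7 days and the knockdown.

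Of the 8 genes of the clamp, its loader, the flap nuclease and the ligase, 5 fell at 7 days. RFC4, a subunit of the clamp loader RFC, was at 54.7, 47.5, 51.9, 62.8 and 42.2 CPM in untreated cells and at 26.5, 29.2, 27.3, 27.7 and 27.5 CPM at 7 days. No library of 7 days reached the untreated range (-0.91 ± 0.074, SE, n = 5 in each group, edgeR adjusted p = 8.74e-10). The loader subunits RFC2 and RFC5 fell by 0.59 and 0.57. FEN1, which removes the flap of Okazaki fragments, and LIG1, which seals them, fell by 0.60 and 0.54. The lane term gave -0.53 for RFC4, which kept its call, and -0.28 for RFC2, -0.38 for RFC5 and -0.27 for FEN1, which lost it. LIG1 and POLA2, the called genes with the smallest folds, were not called when libraries were scaled by their size alone.

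PCNA, the sliding clamp, was not among the genes that fell. It was at 225, 187, 195, 248 and 179 CPM in untreated cells and at 198, 212, 199.8, 192 and 199 CPM at 7 days. The groups overlapped, and the log2 fold change was -0.05 (95% confidence interval -0.18 to 0.09), and 0.22 under a lane term. RFC1, the large subunit of the loader, was at 193, 196, 198, 177 and 257 CPM and at 209.9, 192, 206, 197 and 201 CPM (-0.02 ± 0.07, SE, n = 5 in each group, edgeR adjusted p = 0.841), and its untreated replicate 5 was above all other libraries. Under a lane term RFC1 was at -0.37. RFC3 was at 54, 49.9, 44.9, 51.3 and 43 CPM and at 37.4, 40.6, 36.2, 40.2 and 37.3 CPM, without overlap and under the threshold (-0.34 ± 0.054, SE, n = 5 in each group, edgeR adjusted p = 1.24e-05), and it was at -0.10 under the lane term.

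None of the 3 genes of RPA, the complex that covers single-stranded DNA, was called at 7 days in edgeR, and DESeq2 called none either. RPA3 was at 98.5, 83.1, 79.8, 121 and 66.9 CPM in untreated cells and at 64.8, 71.5, 65.4, 62.7 and 63.4 CPM at 7 days. Untreated replicate 5 lay within the range of the irradiated libraries (-0.46 ± 0.1, SE, n = 5 in each group, edgeR adjusted p = 4.63e-04). RPA2 was at 87, 72, 82.4, 92.6 and 62.8 CPM and at 73, 74.9, 72, 67 and 72.1 CPM (-0.15 ± 0.072, SE, n = 5 in each group, edgeR adjusted p = 0.0854), and RPA1 had a log2 fold change of -0.15 (95% confidence interval -0.33 to 0.03). For RPA1 untreated replicate 5 (94 CPM) lay below all libraries of 7 days (117 to 124 CPM). The other untreated libraries of RPA1 (128 to 155 CPM) lay above them. RPA3 was the only one that passed an unadjusted p under 0.05, and it was called lower without untreated replicate 5 or without replicate 2 of 7 days. Under a lane term all 3 turned direction, to 0.04 (RPA3), 0.22 (RPA2) and 0.33 (RPA1).

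Of 5 genes of nucleotide supply TK1 and DUT fell at 7 days. TK1, the thymidine kinase of the salvage pathway, was at 203, 167, 178, 232 and 133 CPM in untreated cells and at 77.7, 90.7, 80.5, 81.7 and 80.3 CPM at 7 days. The irradiated libraries were all lower, at 44.9% of the untreated mean (-1.15 ± 0.11, SE, n = 5 in each group, edgeR adjusted p = 7.71e-09). DUT, which breaks down dUTP, was at 78.8, 72.3, 71.6, 94 and 56.8 CPM and at 39.8, 39.9, 40.7, 40.9 and 38.5 CPM, without overlap (-0.90 ± 0.09, SE, n = 5 in each group, edgeR adjusted p = 1.85e-08). Under a lane term the log2 fold changes of TK1 and DUT were -0.72 and -0.41, and that of TYMS was -0.02. TYMS, the thymidylate synthase, was at 248, 208, 222, 283 and 189 CPM and at 179.6, 189, 179, 169 and 177 CPM (-0.36 ± 0.078, SE, n = 5 in each group, edgeR adjusted p = 3.65e-04), and untreated replicate 5 overlapped with the irradiated libraries.

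RRM1 and RRM2, the large subunit of ribonucleotide reductase and the small subunit used in S phase, had log2 fold changes of -0.42 ± 0.047 (edgeR adjusted p = 1.18e-07) and -0.39 ± 0.042 (edgeR adjusted p = 8.64e-08) at 7 days. RRM2B, the small subunit induced by p53, was no member of the 48 genes and moved the other way. RRM2 was at 425, 409, 400.2, 423 and 382 CPM in untreated cells and at 302, 326, 298, 311 and 324 CPM at 7 days. RRM2B was at 253, 270.0, 236, 220.2 and 177 CPM in untreated cells, at 403, 435, 429, 407 and 410.2 CPM at 1.5 h and at 658, 614, 638, 603 and 626 CPM at 7 days. It rose by 1.44 ± 0.076 (SE, n = 5 in each group, edgeR adjusted p = 9.52e-13) at 7 days, by 0.85 at 1.5 h and by 0.53 in the knockdown. The last value is close to the threshold of 0.5, and untreated replicate 5 was the lowest library of RRM2B. Values without that library or under a lane term were not taken for RRM2B. Per kilobase, the ratio of RRM2 to RRM2B was 2.01 ± 0.281 (SD, n = 5) in untreated cells, 1.12 ± 0.0524 at 1.5 h, 0.557 ± 0.0363 at 7 days and 1.001 ± 0.0466 in the knockdown. Each of the other groups lay below the whole untreated range, of which untreated replicate 5 was the highest (2.42). This pair was chosen after its values were seen, so that the ratio is a description without a test.

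**Figure D3:**
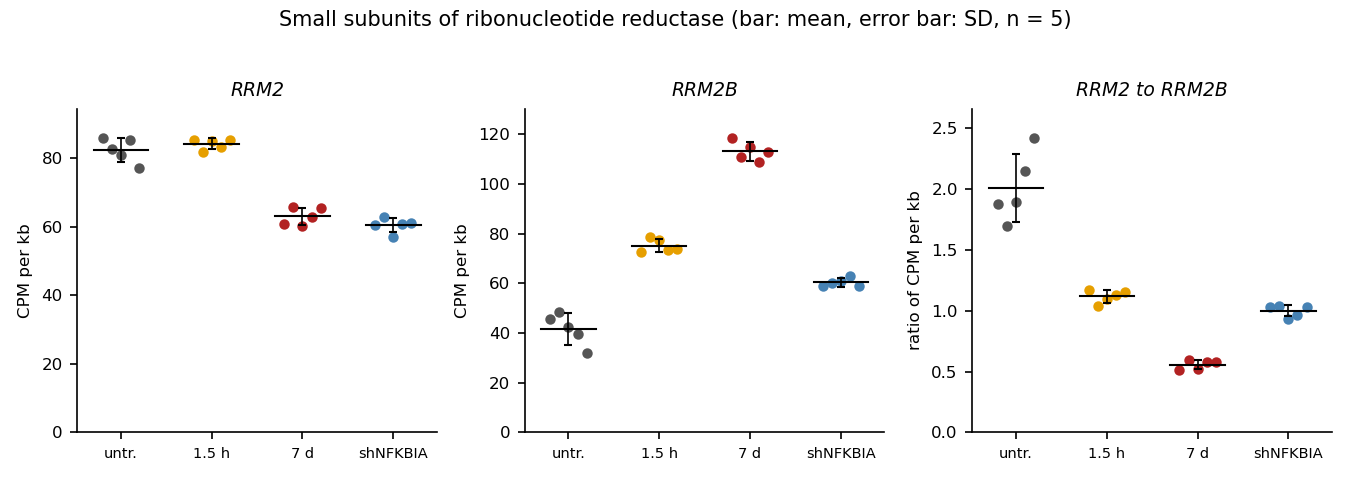
Levels of RRM2 and RRM2B (CPM per kilobase of gene length) and their ratio in each library by group, with the mean and SD of 5 libraries. The ratio is 1.70 to 2.42 in untreated libraries, 1.04 to 1.18 at 1.5 h, 0.514 to 0.594 at 7 days and 0.936 to 1.04 in the knockdown.

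As a mean over the genes of a role group in each library, the MCM subunits lay at -0.89 to -0.83 from the untreated mean on the log2 CPM scale at 7 days, and the origin recognition complex at -0.20 to -0.17. Licensing and firing factors lay at -0.71 to -0.63, polymerases and primase at -0.70 to -0.59 and nucleotide supply at -0.66 to -0.56, so that the libraries of these groups overlapped. RPA was at -0.30 to -0.15 there and at -0.40 to 0.30 in the untreated libraries, so that these overlapped. In untreated libraries the spread was wider than in any other group, with -0.16 to 0.12 over all 48 genes against -0.58 to -0.51 at 7 days.

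**Figure D4:**
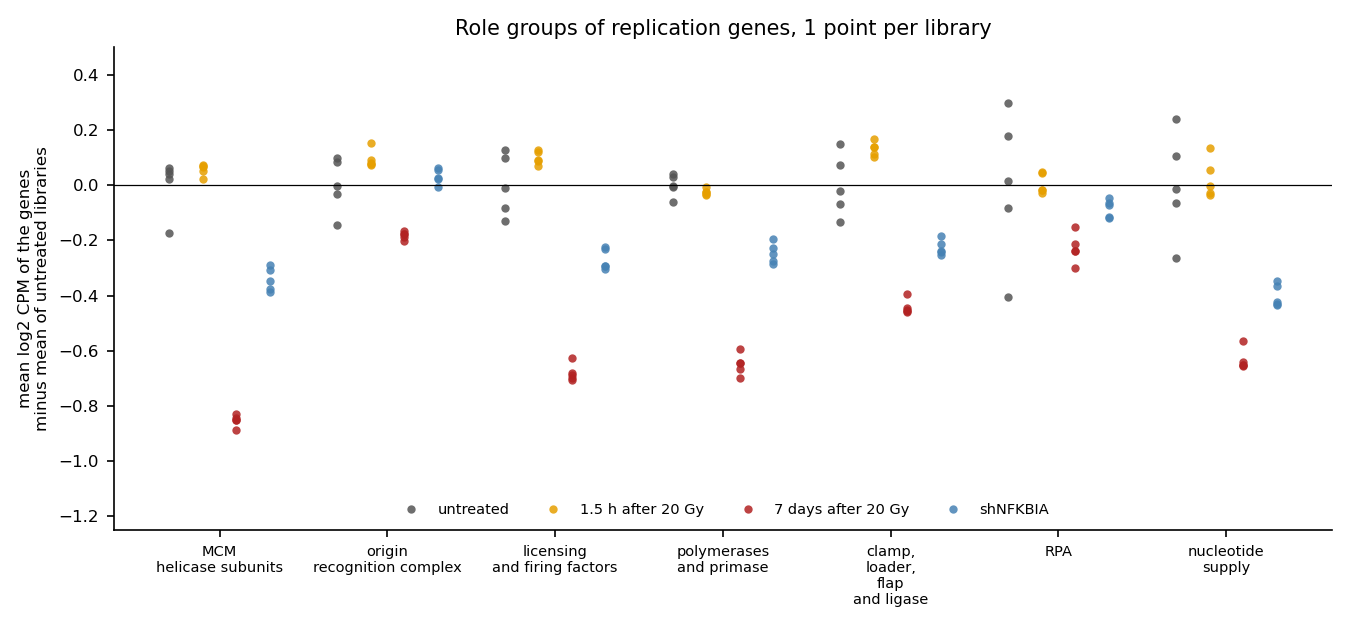
Mean log2 CPM of the genes of each role group minus the mean of the untreated libraries (y axis), 1 point per library, by role group (x axis) and coloured by condition. At 7 days the MCM subunits are lowest, between -0.89 and -0.83, and the origin recognition complex is at -0.20 to -0.17.

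Related genes that are not among the 48 were counted in the same fit. Over all genes tested 14.4% were called lower and 16.7% higher at 7 days. Of 31 other fork and origin factors 17 fell at 7 days and none rose. Their median was -0.52 on the log2 scale, and the largest fall was that of TICRR, which is needed to fire origins (-1.15 ± 0.13, edgeR adjusted p = 7.70e-08). TICRR was at 80.4 CPM in untreated replicate 5, against 36.3 to 56.2 CPM in the other untreated libraries. Of 14 tested genes of chromatin assembly behind the fork 9 fell, led by CHAF1A (-0.97 ± 0.042, edgeR adjusted p = 4.36e-14), the large subunit of chromatin assembly factor 1. Of 20 other genes of nucleotide metabolism RRM2B rose and 3 fell, which is 15% and near the share of all genes. Of these NUDT1 fell most (-0.92 ± 0.092, edgeR adjusted p = 2.10e-08). Of 12 translesion and repair polymerases POLH, the polymerase that passes ultraviolet lesions, rose (0.77 ± 0.079, edgeR adjusted p = 2.98e-08) and POLQ fell (-0.70 ± 0.088, edgeR adjusted p = 6.41e-07). These lists were chosen with earlier results of these data known, and values under a lane term were not taken for them.

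The 20 mitotic genes all fell at 7 days (median -1.17 on the log2 scale), against 14.4% of all genes tested. KIF20A, a kinesin of cytokinesis, fell most (-1.62 ± 0.05, edgeR adjusted p = 2.16e-16). The part of a lower share of dividing cells in the fall of the 48 replication genes was not tested. At 1.5 h 4 of these mitotic genes (PLK1, AURKA, KIF20A and CENPA) were already called lower, against 1.57% of all genes tested. In the knockdown 4 (PLK1, CENPE, TPX2 and BIRC5) were called lower, against 7.53%. Untreated replicate 5, which stood apart, was the highest untreated library of PLK1, KIF20A, CENPE and TPX2 and the lowest of AURKA and BIRC5. For CENPE the knockdown libraries overlapped with the untreated ones. Values without that untreated library or under a lane term were not taken for the mitotic genes, so that how far these calls rest on it was not tested.

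**Figure D5:**
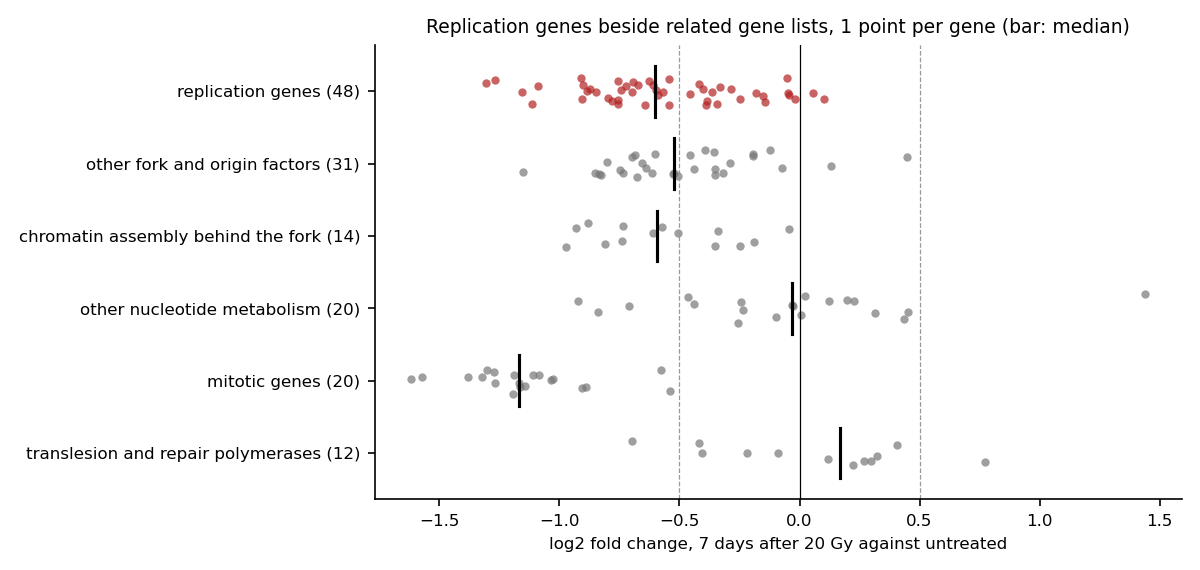
Log2 fold changes (x axis) between 7 days and untreated cells for the 48 replication genes and 5 related lists (rows, with the number of genes tested), 1 point per gene; bars are medians and dashed lines mark 0.5 in either direction. The medians are -0.60 for the replication genes, -0.52 for other fork factors, -0.59 for chromatin assembly, -0.03 for nucleotide metabolism, -1.17 for mitotic genes and 0.17 for translesion polymerases.

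At 1.5 h after IR none of the 48 genes was called, against 2.08% of all genes tested called higher and 1.57% called lower. The median log2 fold change was 0.03, with -0.03 over all genes tested. By an unadjusted p under 0.05, 12 genes were higher and 3 lower in edgeR, against 15.7% and 17.7% of all genes, and by the adjusted p alone 8 and 2, against 11.1% and 10.2% of all genes. All libraries lay above the untreated ones for 5 genes and below them for 1, against 7.42% and 4.85%. DESeq2 called none in either direction with the same threshold on the fold change.

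The genes with the largest differences at 1.5 h were PCNA, RFC3, CDC6 and DBF4. PCNA was at 298, 290.2, 278, 279 and 290.1 CPM, above all untreated libraries, and the log2 fold change was 0.47 ± 0.066 (SE, n = 5 in each group, edgeR adjusted p = 2.47e-05). RFC3 was at 65.3, 67, 64.5, 62.5 and 64.5 CPM (0.41 ± 0.054, SE, n = 5 in each group, edgeR adjusted p = 1.12e-05) and CDC6 at 166, 161, 158, 158 and 162 CPM (0.37 ± 0.049, SE, n = 5 in each group, edgeR adjusted p = 1.38e-05), both also above the untreated range. DBF4 was at 39.6, 38.8, 40, 37.6 and 38.9 CPM against 55.4, 45.5, 45.2, 52 and 72.3 CPM, below every untreated library (-0.47 ± 0.089, SE, n = 5 in each group, edgeR adjusted p = 7.33e-04). These were all under the threshold on the fold change, and 1 library decided some of the calls. PCNA passed without untreated replicate 1 (0.51) or replicate 4 (0.54), and DBF4 without untreated replicate 2 (-0.52) or replicate 3 (-0.53). ORC6 (0.31 ± 0.074, edgeR adjusted p = 0.00464) and RFC5 (0.15 ± 0.046, edgeR adjusted p = 0.0254) also lay above all untreated libraries.

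In lane 3 the only untreated library was replicate 5, which stood apart, so that a fit within this lane compares 3 libraries of 1.5 h with that single library. It gave 9 genes higher and 3 lower, against 11.2% and 13.7% of all genes, and these counts describe this library rather than untreated cells. The fit with the lane as a factor rests on the same library. In it 10 were higher and 3 (CDC7, DBF4 and POLD2) lower, against 11.9% and 13.6% of all genes. ORC6 was highest at 0.73, PCNA was at 0.69, RFC3 at 0.61, CDC6 at 0.51 and DBF4 at -0.87. The other genes called higher were MCM2, ORC4, CDC45, GINS3, GINS4 and DUT. Without untreated replicate 5 none was called.

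From 1.5 h to 7 days 30 of the 48 genes fell and none rose, against 12.6% of all genes tested called lower and 16.8% called higher. The median log2 fold change was -0.65. By the adjusted p alone 42 genes were lower and 1 higher, against 28.9% and 32% of all genes. The libraries of 44 genes lay wholly below those of 1.5 h and of 1 gene (ORC5) above, against 29.9% and 31.9%. At an unadjusted p under 0.05 1 gene was higher in edgeR (ORC5), against 33.6% of all genes, and DESeq2 called 0 higher and 31 lower. CDC6, GINS1, PCNA and RFC3, which were not called at 7 days against untreated cells, were called here. The log2 fold changes were -0.70 for CDC6, -0.55 for GINS1, -0.52 for PCNA and -0.76 for RFC3. PCNA thus went from 278 to 298 CPM at 1.5 h to 192 to 212 CPM at 7 days, the latter within the untreated range of 179 to 248 CPM. PCNA and LIG1 lost the call with the lane as a factor, within lane 4, and with scaling by library size alone. DBF4, POLA2 and POLD2, which had been called against untreated cells, were at -0.42, -0.44 and -0.43 here. This comparison does not use the untreated libraries, and lane 4 held 2 libraries of each time. Within this lane 29 genes were called lower, against 12.9% of all genes, 28 of them among the 30, and the median was -0.67.

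In the NFKBIA knockdown TK1 alone fell and none rose, against 7.53% of all genes tested called lower and 5.18% called higher. The median log2 fold change was -0.25, against -0.01 over all genes tested. By the adjusted p alone 35 of the 48 genes were lower and 2 higher, against 21.1% and 19.5% of all genes, so that most differences were under the threshold of 0.5. The libraries of 15 genes lay wholly below the untreated ones and of 1 gene (ORC2) above, against 11.8% and 12.3%. DESeq2 also called 1 lower and 0 higher, and 3 genes were higher at an unadjusted p under 0.05 in edgeR, against 23.5% of all genes.

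TK1 was at 114, 113, 104, 94.9 and 91.4 CPM in the knockdown, below all untreated libraries (-0.82 ± 0.11, SE, n = 5 in each group, edgeR adjusted p = 3.49e-06). With the lane as a factor its log2 fold change was -0.23 (edgeR adjusted p = 0.529), the median over the 48 genes was 0.09, and 6 genes (MCM5, MCM10, CDC7, DBF4, POLD2 and RFC1) were called lower and 2 (ORC4 and ORC5) higher, against 14% and 13.3% of all genes. No lane held both knockdown and untreated libraries, so that no value within a lane can be given. All 6 MCM subunits were lower by the adjusted p, from -0.47 (MCM5) to -0.25 (MCM2). Under the lane term MCM5 (-0.62) and MCM4 (-0.44) stayed lower, and MCM2 (0.12), MCM3 (0.09), MCM6 (0.09) and MCM7 (0.03) turned direction. POLE2 was at -0.46, RRM2 at -0.45, DBF4 at -0.44 and RRM1 at -0.42, and under the lane term these were at -0.34, -0.34, -0.78 and -0.22. ORC2 (0.17 ± 0.043, edgeR adjusted p = 0.00297) and ORC5 (0.19 ± 0.056, edgeR adjusted p = 0.00976) were the genes that were higher by the adjusted p.

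The 7 days libraries were also compared with the knockdown. Of the 48 genes 13 were lower at 7 days than in the knockdown and none was higher, against 9.89% of all genes tested called lower and 15.8% called higher. The median log2 fold change was -0.36. By the adjusted p alone 35 genes were lower and 1 higher (PCNA), against 27.7% and 29.7% of all genes, and 36 genes lay wholly below and 2 above, against 30.1% and 30.6%. DESeq2 also called 13 lower and 0 higher. At an unadjusted p under 0.05 in edgeR 2 genes were higher (PCNA and RFC1), against 31.5% of all genes. The 13 were MCM5, MCM6, MCM7, ORC1, GMNN, GINS2, CDC7, POLA1, PRIM1, POLE, POLE2, RFC4 and DUT, with GINS2 (-0.93 ± 0.093, edgeR adjusted p = 2.44e-08), POLE2 (-0.81 ± 0.059, edgeR adjusted p = 1.96e-10) and DUT (-0.79 ± 0.09, edgeR adjusted p = 1.69e-07) at the end of the range. POLA1 was at 57.5 to 62.7 CPM in the knockdown, within the untreated range of 55 to 65.3 CPM, and at 38.2 to 39.8 CPM at 7 days. Among genes that reached 10 counts in all libraries, 10 were called lower, against 9.25% of all genes in that fit, and MCM7, GMNN and POLE lost the call. With the lane as a factor the 13 kept the call and MCM3, CDC45 and GINS3 gained it. Leaving out 1 library at a time gave 12 to 16 genes lower.

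For other genes the interval of the difference included 0. The log2 difference between 7 days and the knockdown was 0.00 (95% confidence interval -0.10 to 0.10) for RRM1, 0.06 (95% confidence interval -0.03 to 0.15) for RRM2, 0.06 (95% confidence interval -0.05 to 0.16) for CDC6 and 0.05 (95% confidence interval -0.11 to 0.20) for ORC6. For these 4 genes the whole interval lay inside the threshold. RRM2 was at 299.6, 311, 282, 302 and 302 CPM in the knockdown, below all untreated libraries and overlapping with those from 7 days. PCNA was higher at 7 days than in every knockdown library, by 0.20 (95% confidence interval 0.06 to 0.34), which is under the threshold.

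Some of these values can include reads of other genes. In the GENCODE 29 annotation (GRCh38, not the hg19 build named in the submitters' notes), 8 of the 48 genes share at least 200 exon bases with a gene on the opposite strand, among them TYMS with ENOSF1 (967 bases), ORC4 with ACVR2A (430) and MCM7 with AP4M1 (392). A further 4 (POLA2, PRIM1, POLD1 and RRM2) share as many with a gene model on the same strand. Pseudogenes are annotated for 10 genes, with 8 for DUT, 3 for PCNA and 3 for RRM2. The libraries were stranded, but the strand setting of the counting is not given in the sources used here.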

How the data were processed

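RNA of U2-OS cells was sequenced as stranded mRNA libraries with single reads, 5 libraries in each of 4 groups. Counts of reads per gene, without normalization, were deposited by the authors. Per the submitters' processing notes bcl2fastq, Trimmomatic, STAR 2.4.2a and the build hg19 were used, and the counting tool, annotation and strand setting are not given in the sources used here. Groups and lanes were taken from the labels.

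Genes were kept by filterByExpr of edgeR 4.0.16 (R 4.3.3) with a minimum count of 10, which left 14992 of 20314 genes. Counts were scaled by TMM and fitted in 1 quasi-likelihood model over all 20 libraries, without a replicate block or a lane term, and p-values were adjusted by Benjamini-Hochberg over all genes tested. Calls required an adjusted p under 0.05 and a log2 difference of more than 0.5 in either direction. Alternatives were DESeq2 1.42.0, other scaling and filters, other fold thresholds, the lane or replicate number as a factor, single lanes, only the groups compared, and leaving out each library. Scripts were tested on simulated data.

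The genes and lists were chosen with earlier results of these data known. Values of every library are given for the genes with the largest fall and rise of each role group at 7 days, for those called at 1.5 h or in the knockdown, and for those whose call went against the majority of their group. DBF4 at 1.5 h and the pair RRM2 and RRM2B were chosen after their values were seen. Promoters are those of RefSeq (GRCh38.p14), and exon overlaps are from GENCODE 29.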

Additional observations from a re-analysis of the deposited data

Results flagged for a closer look

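For each of the 48 genes and 4 groups, the highest and the lowest library were compared with the rest of the group by Dixon's ratio, with a critical value of 0.71 for 5 libraries. Of 192 groups of values 14 held a library that stood apart, where chance gives about 1 in 20. Untreated replicate 5 stood apart for MCM2 (136.4 CPM, against 185 to 197 CPM in the other 4 libraries), MCM5 (290.4 CPM, against 226 to 239 CPM in the other 4 libraries), MCM7 (296.8 CPM, against 387 to 403 CPM in the other 4 libraries), ORC2 (44.57 CPM, against 49.7 to 51.2 CPM in the other 4 libraries), CDC7 (74.25 CPM, against 42.1 to 48.6 CPM in the other 4 libraries) and RFC1 (256.5 CPM, against 177 to 198 CPM in the other 4 libraries). The 1.5 h replicate 1 stood apart for MCM5 (251.2 CPM, against 227 to 232 CPM in the other 4 libraries) and DUT (92.25 CPM, against 74.3 to 75.9 CPM in the other 4 libraries). The 7 days replicate 3 stood apart for MCM5 (103.6 CPM, against 113 to 115 CPM in the other 4 libraries). The 7 days replicate 1 stood apart for MCM6 (72.17 CPM, against 67.1 to 68.2 CPM in the other 4 libraries) and POLA1 (39.84 CPM, against 38.2 to 38.7 CPM in the other 4 libraries). Knockdown replicate 4 stood apart for ORC1 (34.6 CPM, against 35.1 to 35.3 CPM in the other 4 libraries). The 7 days replicate 2 stood apart for ORC2 (39.26 CPM, against 40.4 to 40.8 CPM in the other 4 libraries). The 7 days replicate 4 stood apart for ORC3 (44.58 CPM, against 46.8 to 47.4 CPM in the other 4 libraries).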

How the results depend on the processing

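The lane followed the groups, and the comparisons with untreated cells under a lane term rest on untreated replicate 5. With the lane as a factor, 17 genes were called lower at 7 days (against 19.5% of all genes; median -0.37), 10 higher and 3 lower at 1.5 h (against 11.9% and 13.6% of all genes; median 0.32), and 2 higher and 6 lower in the knockdown (against 13.3% and 14% of all genes), where the median reversed to 0.0876. Between 7 days and the knockdown the median was then -0.41, and -0.42 within lane 5, where the knockdown was a single library. Within lane 3, against untreated replicate 5 alone, which stood apart, 9 genes were higher and 3 lower at 1.5 h (median 0.31). Fits against a single library have no spread of their own in that arm and say nothing on how stable a call is. The cause was not tested.

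By the adjusted p alone, 8 genes were higher and 2 lower at 1.5 h, 2 higher and 35 lower in the knockdown, 1 higher from 1.5 h to 7 days, and 1 higher and 35 lower at 7 days against the knockdown. With a threshold of 1 on the log2 fold change, 5 genes were lower at 7 days against untreated cells (4.54% of all genes were) and 5 against 1.5 h (3.38%), and 0 in the knockdown (2.05%) and 0 at 7 days against it (2.77%). Leaving out 1 library at a time gave 0 to 1 genes higher and 0 to 1 lower at 1.5 h, a median of -0.685 to -0.638 from 1.5 h to 7 days, and of -0.395 to -0.365 between 7 days and the knockdown. At 7 days against untreated cells 29 to 30 genes were called lower.

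Libraries with the same replicate number correlated at -0.254 to 0.123 in their deviations from the group means (30 pairs, median -0.011), and 2 of 20 libraries correlated best with their own number, so that the numbers do not pair the libraries. With the replicate block 29 genes were called lower at 7 days and 0 at 1.5 h, 1 in the knockdown, 30 from 1.5 h to 7 days and 13 against the knockdown, the same counts as without it.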
